A study of Mus musculus with 8 samples.

Results

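The minor spliceosome proteins described here are the products of 10 genes, chosen by name as the protein parts of the U11/U12 di-snRNP together with the partner pair RBM48 and ARMC7. They are *Snrnp25*, *Snrnp35*, *Snrnp48*, *Pdcd7*, *Rnpc3*, *Zcrb1*, *Zmat5*, *Zrsr2*, *Rbm48* and *Armc7*, and they are 10 of the 55385 genes in the deposited count table. All 10 passed the filter on low counts, which left 17445 genes for testing. Transcripts were measured by RNA-seq of poly(A)-selected RNA from R1 mESCs, a mouse embryonic stem cell line recorded as wild type and grown without feeder cells in N2B27 medium with 2i and LIF. All 3 groups were infected with hairpin lentivirus for 2 days and then selected with puromycin for 3 days. Cells with shRNA1 (3 libraries) carried a hairpin against the 3′ UTR of *Eftud2*, and cells with shRNA2 (3 libraries) a hairpin against its coding sequence. Cells with nt-shRNA (2 libraries) carried a non-targeting hairpin and serve as the control for both, so the hairpin comparisons share the same 2 control libraries. The libraries of a group are labelled as biological replicates of this single line.

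Most introns of a mouse gene are removed by the major spliceosome, which finds them with the U1 and U2 snRNPs. A small, conserved class, the U12-type introns, is removed by the minor spliceosome, in which the U11/U12 di-snRNP binds the 5′ splice site and the branch point together and U4atac/U6atac replaces U4/U6. The U5 snRNP is common to both machines, and EFTUD2, the GTPase that the hairpins target, belongs to it. The question put to the data was how the transcripts of the proteins found in the minor spliceosome alone stood in cells with less *Eftud2*.

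Of the 10 genes, *Rnpc3* and *Snrnp48* carry a known control element, which is printed here because it was found in these 2 and in no annotated transcript of the other 8. Introns outside annotated retained-intron transcripts were not searched. Each holds a pair of sequences that match a U12-type 5′ splice site, and U11 binding to such a pair is known to steer the transcript into a form that yields little or no protein, so that the machine limits its own parts. Copies of GTATCCTT or ATATCCTT (read with U for T in RNA) were searched on the sense strand of the GENCODE M21 transcripts, and the capitals mark the copies.
*Rnpc3*: GTATCCTTtcttGTATCCTT
*Snrnp48*: GTATCCTTtttgcaaatgATATCCTT
The *Rnpc3* pair lies at chr3:113607237-113607256 on the minus strand (GRCm38), in the 3′ UTR of 3 coding transcripts, with 4 bases between the copies. The *Snrnp48* pair lies at chr13:38214668-38214693 on the plus strand, with 10 bases between the copies, inside an intron that 1 annotated transcript retains and in no coding transcript. Of 55450 genes with transcripts, 6 (0.0108%) hold a pair with at most 20 bases between the copies, and 2 of these 6 are *Rnpc3* and *Snrnp48*. At least 1 copy is found in 3417 genes (6.16%), and of the 10 only the same 2 hold a copy in the transcripts searched. Gene counts add all forms of a transcript, so the measurements below do not separate the forms with the element from those without it.

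Between 19569525 and 29871048 fragments were counted per library, and the 10 genes had from 105 counts (*Armc7*) to 4391 counts (*Snrnp48*) in a library. Levels are given in CPM, counts scaled to a common library size by the TMM method. *Eftud2* was at 262 and 256 CPM with nt-shRNA, at 232, 229 and 225 CPM with shRNA1, and at 198, 202 and 235 CPM with shRNA2. Every hairpin library lay below both controls. Fitted against nt-shRNA, shRNA1 gave -0.18 on the log2 scale (edgeR adjusted p = 0.0514, under the threshold in 6 of 15 alternative analyses, among them those without shRNA2 replicate 2, adjusted p = 0.0415, and without shRNA2 replicate 3, adjusted p = 0.0215) and shRNA2 gave -0.29 (adjusted p = 0.00122). With libraries scaled by total counts alone, the shRNA1 value of *Eftud2* was -0.06 (adjusted p = 0.498). The difference between the hairpins, -0.11 (95% confidence interval -0.24 to 0.02, adjusted p = 0.164), passed only without shRNA2 replicate 3 (-0.19, adjusted p = 0.0127). By qPCR the authors report a larger fall of *Eftud2* with each hairpin than these counts show. Their western blot showed less EFTUD2 protein with either. All 8 pluripotency genes used as markers were above 1 CPM in every group, and their summed level differed by group (4317 to 4383 CPM with nt-shRNA, 4790 to 4927 CPM with shRNA1, 5678 to 5828 CPM with shRNA2). The 8 did not move together. With shRNA1 4 were called higher and with shRNA2 6, *Pou5f1* was lower with both (-0.35 and -0.29), and *Sox2* was called with neither. The 6 fibroblast markers summed to 4.56 to 4.95 CPM with nt-shRNA, 6.52 to 7.34 CPM with shRNA1 and 6.28 to 7.48 CPM with shRNA2, and *Col1a2* was called higher with both hairpins (1.27 and 1.66). The 10 markers of differentiated lineages summed to 49.0 to 51.2 CPM, 46.8 to 50.3 CPM and 42.1 to 46.8 CPM in the same order. They did not all fall: of the 8 that were tested, 1 was called higher and 1 lower with shRNA2, and 0 higher and 1 lower with shRNA1. In bulk RNA, a change in the cells present and a change in RNA per cell cannot be told apart, and the part of these marker differences in the results below was not tested.

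With shRNA2, the transcripts of 5 of the 10 proteins changed, and they did not all move the same way. *Rnpc3*, whose product binds the U12 snRNA, rose 1.46-fold. *Zcrb1*, another di-snRNP subunit, rose 1.31-fold, *Rbm48* rose 1.20-fold and *Zrsr2*, which recognizes the 3′ splice site of U12-type introns, rose 1.18-fold. *Pdcd7*, the U11 protein that holds on to RNPC3, fell to 0.828 of its control level. By edgeR's quasi-likelihood test with Benjamini-Hochberg adjustment over all genes tested, 4 members were thus higher, where 27.2% of all genes were, and 1 was lower, where 28.7% of all genes were. Read against these shares, 4 of 10 higher and 1 of 10 lower is not a result about the members as a set. The median log2 fold change of the 10 was 0.11, against 0.00 over all genes. It was 0.02 without shRNA2 replicate 2 and 0.07 without nt-shRNA replicate 2, but 0.17 without shRNA2 replicate 1, 0.18 without shRNA2 replicate 3 and 0.20 with libraries scaled by total counts alone. Without nt-shRNA replicate 2, the higher members were 2, *Rnpc3* and *Zcrb1*.

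With shRNA1, no member passed the threshold in either direction by the same test, while 13.8% of all genes were higher and 17.1% lower. DESeq2 also called none, and 4 members had an unadjusted edgeR p under 0.05 (*Rnpc3* and *Zcrb1* with positive values, *Snrnp25* and *Snrnp48* with negative ones). The median log2 fold change of the 10 was -0.10, against -0.01 over all genes, and its sign turned (0.01) when libraries were scaled by total counts alone. Leaving out shRNA1 replicate 3 brought *Rnpc3* (0.35, adjusted p = 0.00897), *Zcrb1* (0.26, adjusted p = 0.0222) and *Snrnp25* (-0.36, adjusted p = 0.00358) past the threshold.

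**Figure D1:**
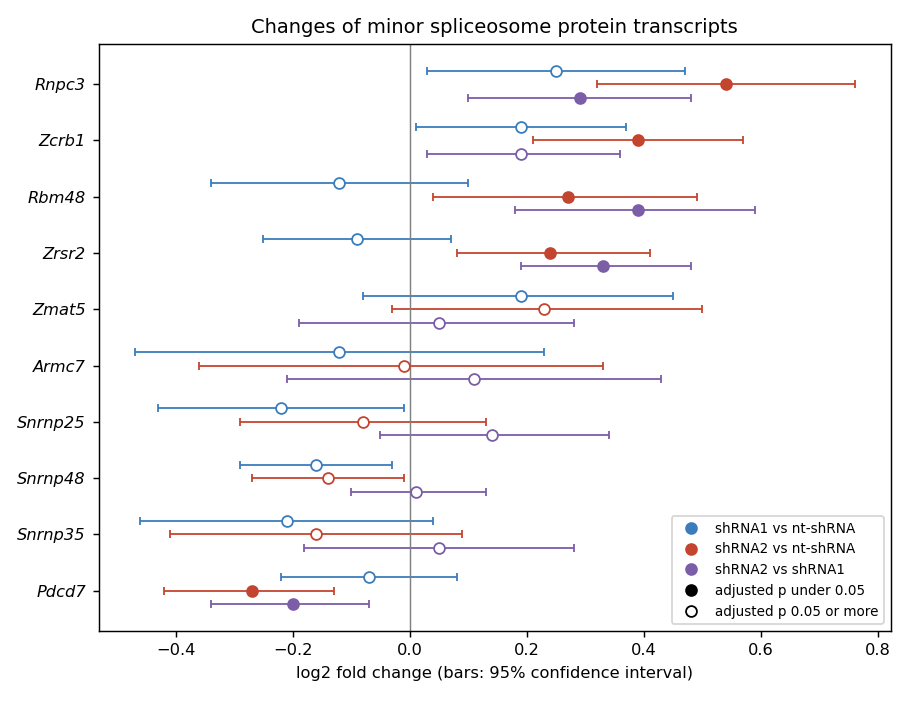
Log2 fold change (horizontal axis) of each of the 10 transcripts with shRNA1 against nt-shRNA, shRNA2 against nt-shRNA and shRNA2 against shRNA1, with bars for the 95% confidence interval and filled points for an adjusted p under 0.05. Under shRNA2 the values run from -0.27 (*Pdcd7*) to 0.54 (*Rnpc3*), and no point of shRNA1 against nt-shRNA is filled.

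The direct comparison of the hairpins tests whether their effects differed. It placed 3 members higher with shRNA2 than with shRNA1, where 16.9% of all genes were higher, and 1 lower, where 18.7% were lower. The higher ones were *Rbm48*, *Zrsr2* and *Rnpc3*, and the lower one was *Pdcd7*. The median difference was 0.13 over the members and -0.00 over all genes, and it was 0.07 without shRNA2 replicate 2 and 0.08 without shRNA1 replicate 1. *Pdcd7* was no longer lower without shRNA1 replicate 3 or without shRNA2 replicate 2. Without shRNA2 replicate 1, *Rbm48* and *Zrsr2* were the higher members.

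*Rnpc3* and *Snrnp48*, which share the tandem element, had unlike values. *Rnpc3* (chr3:113605067-113630149, minus strand) encodes the protein that joins U12 to the rest of the di-snRNP. Its transcript was at 20.7 and 19.3 CPM with nt-shRNA, at 26.3, 24.7 and 20.6 CPM with shRNA1 and at 31.3, 29.3 and 26.8 CPM with shRNA2. The shRNA2 libraries all lay above every other library, while shRNA1 replicate 3 fell between the controls. With shRNA2 the transcript rose by 0.54 on the log2 scale (SE 0.104, edgeR adjusted p = 2.2e-04), the largest among the members, and it stayed past the threshold in all 15 alternative analyses (0.49 to 0.63). With shRNA1 it was 0.25 (SE 0.105, 95% interval 0.03 to 0.47, adjusted p = 0.0744). The hairpins differed by 0.29 (SE 0.093, adjusted p = 0.0201), a call that was lost without shRNA1 replicate 3 (0.19, adjusted p = 0.117) and without shRNA2 replicate 1 (0.23, adjusted p = 0.108). Exons of *Amy1* on the same strand overlap 17.0% of the *Rnpc3* exon length, and *Amy1* itself did not pass the filter on low counts.

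*Snrnp48* (chr13:38204938-38227665, plus strand) encodes the U11 protein that contacts the 5′ splice site. Its transcript was at 164.6 and 151.7 CPM with nt-shRNA, at 143, 139.6 and 142 CPM with shRNA1 and at 143, 137 and 149.8 CPM with shRNA2. All 6 hairpin libraries lay below both controls, though shRNA2 replicate 3 only just. Fitted log2 fold changes were -0.16 with shRNA1 (SE 0.062, 95% interval -0.29 to -0.03, edgeR adjusted p = 0.0596) and -0.14 with shRNA2 (SE 0.062, 95% interval -0.27 to -0.01, adjusted p = 0.0546), neither past the threshold. Without shRNA2 replicate 3 the shRNA2 value was -0.18 (adjusted p = 0.0301), without nt-shRNA replicate 2 it was -0.21 (adjusted p = 0.0453) and without shRNA1 replicate 3, through the shared spread, -0.14 (adjusted p = 0.0417). The shRNA1 value passed without shRNA2 replicate 2 (-0.15, adjusted p = 0.0438). With libraries scaled by total counts alone, *Snrnp48* was at -0.04 with shRNA1 (adjusted p = 0.626) and -0.05 with shRNA2 (adjusted p = 0.469). Without nt-shRNA replicate 1 its shRNA2 value was -0.09 and its shRNA1 value -0.10, neither called. The hairpins differed by 0.01 (95% interval -0.10 to 0.13).

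**Figure D2:**
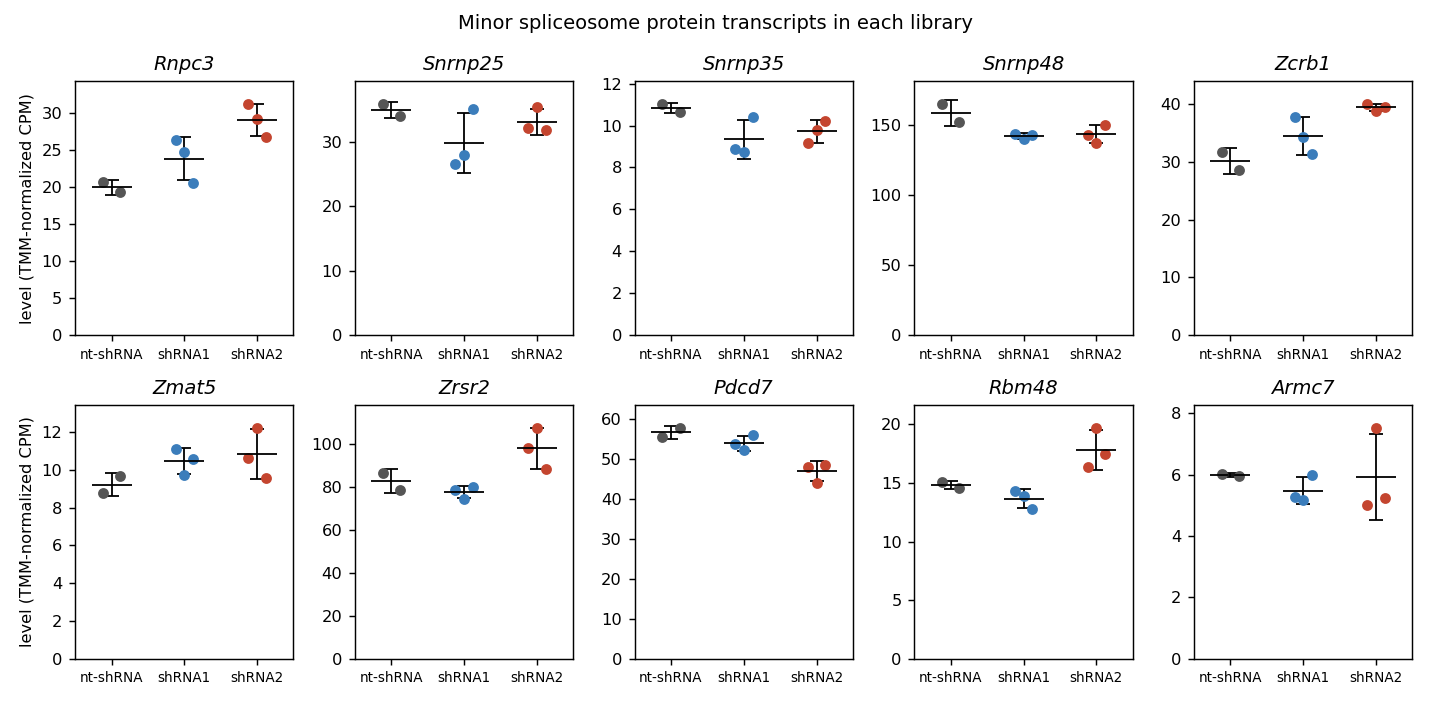
Level of each transcript in TMM-normalized CPM (vertical axes start at 0) in the 2 nt-shRNA, 3 shRNA1 and 3 shRNA2 libraries, with 1 point per library, a line at the group mean and bars of 1 SD. *Rnpc3*, *Zcrb1*, *Zrsr2* and *Rbm48* have all shRNA2 points above all others, and *Pdcd7* has them below.

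Among the other U11 proteins, *Pdcd7* (chr9:65346104-65359643, plus strand) gave the clearest difference. Its product binds RNPC3 and so bridges U11 and U12. The transcript was at 55.5 and 57.7 CPM with nt-shRNA, at 53.7, 52.1 and 55.9 CPM with shRNA1 and at 48.0, 44.0 and 48.6 CPM with shRNA2. The shRNA2 libraries lay below all 5 others, whereas the shRNA1 libraries overlapped the controls. With shRNA2 it fell by 0.27 on the log2 scale (SE 0.071, edgeR adjusted p = 0.00291), past the threshold in all 15 alternatives (-0.30 to -0.18). With shRNA1 the value was -0.07 (95% interval -0.22 to 0.08, adjusted p = 0.478). The hairpins differed by -0.20 (SE 0.064, adjusted p = 0.0192), which did not pass without shRNA1 replicate 3 (-0.18, adjusted p = 0.0587) or without shRNA2 replicate 2 (-0.16, adjusted p = 0.0847). *Rnpc3* and *Pdcd7*, whose products bind each other, thus had opposite calls under shRNA2.

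*Snrnp25* (chr11:32205415-32208984, plus strand) and *Snrnp35* (chr5:124483134-124491124, plus strand) encode further U11 subunits, and SNRNP35 is the counterpart of the U1 protein SNRNP70. *Snrnp25* was at 35.9 and 34.1 CPM with nt-shRNA, at 26.6, 27.9 and 35.2 CPM with shRNA1 and at 32.2, 35.5 and 31.9 CPM with shRNA2. Replicates 1 and 2 of shRNA1 lay below all others, and shRNA1 replicate 3 lay between the controls. Its fold change on the log2 scale was -0.22 with shRNA1 (95% interval -0.43 to -0.01, edgeR adjusted p = 0.102) and -0.08 with shRNA2 (95% interval -0.29 to 0.13, adjusted p = 0.536). The hairpins differed by 0.14 (adjusted p = 0.232), and by 0.28 (adjusted p = 0.0133) without shRNA1 replicate 3, so this library decided the call. *Snrnp35* was at 11.02 and 10.7 CPM with nt-shRNA, at 8.89, 8.74 and 10.4 CPM with shRNA1 and at 9.16, 9.79 and 10.2 CPM with shRNA2. All hairpin libraries lay below both controls, but the fitted values, -0.21 with shRNA1 (95% interval -0.46 to 0.04, adjusted p = 0.198) and -0.16 with shRNA2 (95% interval -0.41 to 0.09, adjusted p = 0.28), did not pass.

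*Zcrb1* and *Zmat5* encode a pair of small zinc finger subunits of the di-snRNP, the former with an RNA-binding domain. *Zcrb1* (chr15:93386097-93398334, minus strand) was at 31.7 and 28.5 CPM with nt-shRNA, at 37.8, 34.3 and 31.4 CPM with shRNA1 and at 40.0, 38.7 and 39.5 CPM with shRNA2. The 3 shRNA2 values were close together and above all others, and the shRNA1 values spread from the control range upward. It rose with shRNA2 by 0.39 on the log2 scale (SE 0.086, edgeR adjusted p = 7.8e-04), past the threshold in all 15 alternatives (0.31 to 0.48), and with shRNA1 it was 0.19 (SE 0.086, 95% interval 0.01 to 0.37, adjusted p = 0.0944). The difference between the hairpins, 0.19 (95% interval 0.03 to 0.36, adjusted p = 0.0544), did not pass. It did without shRNA1 replicate 1 (0.27, adjusted p = 0.019) and with a replicate block (0.20, adjusted p = 0.0316). Only 28.8% of the *Zcrb1* exon length belongs to coding transcripts, and 5 of its 8 annotated transcripts are retained-intron forms, so its count mixes both.

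*Zmat5* (chr11:4704678-4737669, plus strand) was at 8.77 and 9.65 CPM with nt-shRNA, 11.1, 9.72 and 10.6 CPM with shRNA1 and 10.6, 12.2 and 9.59 CPM with shRNA2. Its shRNA1 libraries lay just above the controls, while shRNA2 replicate 3 fell between them. The log2 fold change was 0.19 with shRNA1 (95% interval -0.08 to 0.45, edgeR adjusted p = 0.282) and 0.23 with shRNA2 (95% interval -0.03 to 0.50, adjusted p = 0.127), neither past the threshold. The shRNA2 value ran from 0.14 (without shRNA2 replicate 2) to 0.32 over the 15 alternatives (adjusted p from 0.0389 to 0.442), and it passed without shRNA2 replicate 3 (0.31, adjusted p = 0.0497) and with libraries scaled by total counts alone (0.32, adjusted p = 0.0389). Antisense exons of *Cabp7* cover 27.1% of its exon length.

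*Zrsr2* (chrX:163935443-163958661, minus strand) encodes the protein that recognizes the 3′ splice site of U12-type introns. It was at 86.7 and 78.6 CPM with nt-shRNA, at 78.3, 74.6 and 80.1 CPM with shRNA1 and at 98.0, 107 and 88.2 CPM with shRNA2. The shRNA2 libraries lay above all others. Of the shRNA1 libraries, replicate 3 lay between the controls and the other two below both. With shRNA2 it rose by 0.24 on the log2 scale (SE 0.077, edgeR adjusted p = 0.0111), a call that was lost without nt-shRNA replicate 2 (0.17, adjusted p = 0.169). With shRNA1 the value was -0.09 (95% interval -0.25 to 0.07, adjusted p = 0.407). The hairpins differed by 0.33 (SE 0.069, adjusted p = 0.00109), which held in all 15 alternatives (0.26 to 0.40). *Zrsr1*, an autosomal relative of *Zrsr2* outside the 10 genes, shares no stretch of 100 bases with it in the annotated transcripts. *Zrsr1* was at 25.9 and 27.8 CPM with nt-shRNA, 31.8, 33.1 and 32.2 CPM with shRNA1 and 42.9, 42.8 and 36.5 CPM with shRNA2, without overlap between the groups. It was called higher with shRNA1 (0.27, adjusted p = 0.0213; not without shRNA1 replicate 2 or either control library) and with shRNA2 (0.60, adjusted p = 7.5e-06).

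*Rbm48* and *Armc7* encode a pair of partner proteins that associate with the minor spliceosome, and RBM48 is needed for the removal of U12-type introns. *Rbm48* (chr5:3583978-3596585, minus strand) was at 15.1 and 14.6 CPM with nt-shRNA, at 14.3, 13.9 and 12.8 CPM with shRNA1 and at 16.3, 19.7 and 17.4 CPM with shRNA2. The groups did not overlap, with shRNA1 lowest and shRNA2 highest. The hairpins differed by 0.39 (SE 0.097, edgeR adjusted p = 0.00456), the largest such difference among the members, and this held in all 15 alternatives (0.31 to 0.44). Against nt-shRNA the log2 fold change was -0.12 with shRNA1 (95% interval -0.34 to 0.10, adjusted p = 0.421) and 0.27 with shRNA2 (SE 0.106, adjusted p = 0.0401). The shRNA2 call against nt-shRNA was lost with DESeq2 (0.26, adjusted p = 0.0884), without a filter on low counts (0.24, adjusted p = 0.112), without shRNA2 replicate 2 (0.19, adjusted p = 0.142), without nt-shRNA replicate 1 (0.29, adjusted p = 0.109), without nt-shRNA replicate 2 (0.24, adjusted p = 0.178) and without shRNA1 replicate 2 (0.27, adjusted p = 0.0536).

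*Armc7* (chr11:115475667-115490467, plus strand) had the fewest counts of the 10. It was at 6.04 and 5.96 CPM with nt-shRNA, at 5.28, 5.18 and 5.99 CPM with shRNA1 and at 5.02, 7.53 and 5.23 CPM with shRNA2. Only shRNA2 replicate 2 stood apart, above all others. Fitted values were -0.12 with shRNA1 (95% interval -0.47 to 0.23, edgeR adjusted p = 0.613) and -0.01 with shRNA2 (95% interval -0.36 to 0.33, adjusted p = 0.946). Without shRNA2 replicate 2, the shRNA2 value of *Armc7* was -0.22 (adjusted p = 0.239) and its difference between the hairpins -0.10 instead of 0.11, neither called. The shRNA2 interval includes the values of *Zrsr2* and *Rbm48*, so a change of that size is not excluded. Antisense exons of *Nt5c* cover 1.6% of the *Armc7* exon length.

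Counted by groups that did not overlap, 4 members had all shRNA2 libraries above both controls (*Rnpc3*, *Zcrb1*, *Zrsr2*, *Rbm48*), where 35.4% of all genes did, and 3 had them below (*Pdcd7*, *Snrnp48*, *Snrnp35*), where 36.0% did. With shRNA1, 1 member lay above both controls (*Zmat5*) and 3 lay below (*Snrnp35*, *Snrnp48*, *Rbm48*), where 26.6% and 30.2% of all genes did. Between the hairpins, 4 members lay higher with shRNA2 in every library and 1 lower, where 23.6% and 24.1% of all genes did. Per library, the median log2 ratio of the 10 members to the control mean was -0.08, -0.13 and -0.01 with shRNA1 and 0.01, 0.34 and -0.01 with shRNA2. Thus shRNA2 replicate 2 stood above the other libraries, and it held the highest level of *Zrsr2*, *Rbm48*, *Zmat5* and *Armc7* and the lowest of *Pdcd7* and *Snrnp48*. The median over all genes was between -0.01 and 0.00 in these libraries.

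Levels were compared between genes only per exon length, as FPKM from the counts and the exon length in the deposited table. With nt-shRNA, *Snrnp25* was highest (33.6 ± 1.25 FPKM, SD, n = 2), followed by *Pdcd7* (22.7 ± 0.637 FPKM) and *Snrnp48* (15.6 ± 0.903 FPKM). *Zrsr2* (11.5 ± 0.790 FPKM) and *Zcrb1* (9.79 ± 0.723 FPKM) came next, then *Snrnp35* (8.05 ± 0.189 FPKM) and *Zmat5* (7.38 ± 0.498 FPKM). The lowest were *Rbm48* (4.83 ± 0.108 FPKM), *Rnpc3* (3.02 ± 0.148 FPKM) and *Armc7* (1.95 ± 0.0179 FPKM). Thus 3 of the 4 U11 proteins took the top places, the other, *Snrnp35*, stood below *Zrsr2* and *Zcrb1*, and *Rnpc3* stood near the bottom. No neighbours in this order overlapped between the control libraries, and *Snrnp35* and *Zmat5* lay closest (8.18 and 7.91 FPKM against 7.03 and 7.73 FPKM). In the hairpin groups these changed places without overlap, with *Zmat5* at 8.39 ± 0.556 FPKM and *Snrnp35* at 6.94 ± 0.687 FPKM with shRNA1, and at 8.67 ± 1.06 and 7.22 ± 0.400 FPKM with shRNA2 (n = 3 each). The libraries of *Zrsr2* and *Zcrb1* overlapped with either hairpin, and those of *Snrnp48* and *Zrsr2* overlapped with shRNA2. The FPKM of *Snrnp48* and *Zcrb1* rest on a length of which 17.7% and 28.8% is in coding transcripts, so these values are not levels per coding transcript.

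**Figure D3:**
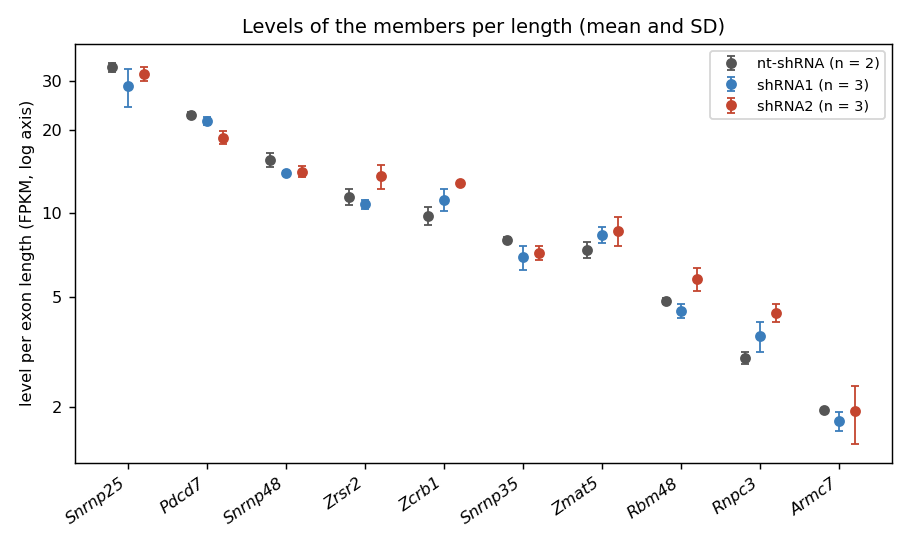
Level per exon length in FPKM (log axis) of the 10 transcripts, ordered by their nt-shRNA level, as mean and SD of 2 nt-shRNA, 3 shRNA1 and 3 shRNA2 libraries. The order runs from *Snrnp25* (33.6 FPKM with nt-shRNA) to *Armc7* (1.95 FPKM), and the hairpin groups move little against this range.

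How the members varied together is given as a description, by Pearson's r of log2 CPM over the same 8 libraries, which share their groups. *Rnpc3* and *Zcrb1* were most alike (r = 0.96), followed by *Zrsr2* and *Rbm48* (r = 0.87) and the U11 pair *Snrnp25* and *Snrnp35* (r = 0.83). *Pdcd7* ran against the first 4 of these (r = -0.88 with *Rnpc3*, -0.84 with *Zcrb1*, -0.82 with *Zrsr2*, -0.86 with *Rbm48*). Over all genes tested, those most like *Rnpc3* were *Ppat* (r = 0.9946), *Stxbp4* (r = 0.9900) and *Timm21* (r = 0.9899).

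Other proteins of the minor spliceosome and those it shares with the major one were read from lists of gene names. Beside their counts stand the shares of all genes tested, 27.2% higher and 28.7% lower with shRNA2 and 13.8% and 17.1% with shRNA1. Of 9 further genes tied to the minor spliceosome, 2 were higher and 1 lower with shRNA2 (median log2 fold change -0.05) and 1 higher and 1 lower with shRNA1 (median -0.08), and both medians were 0.04 with libraries scaled by total counts alone. Their signs also turned with single libraries left out, to 0.02 (shRNA2) and 0.01 (shRNA1) without nt-shRNA replicate 2 and to 0.03 (shRNA2) without shRNA2 replicate 3, while the shRNA1 median was -0.14 without nt-shRNA replicate 1. *Zrsr1* and *Rnf113a2* (0.60, edgeR adjusted p = 1.4e-04) were the higher ones under shRNA2. *Ccdc84*, whose product CENATAC serves a subtype of U12-type introns, was lower with shRNA2 (-0.32, adjusted p = 0.0114) and with shRNA1 (-0.42, adjusted p = 0.00386). Neither call held without nt-shRNA replicate 1, where the values were -0.20 with shRNA2 and -0.30 with shRNA1. The shRNA2 call was also lost without shRNA2 replicate 3 (-0.24, adjusted p = 0.0534) and with libraries scaled by total counts alone (-0.23, adjusted p = 0.0563). Of the 7 SF3B subunits, which sit in both U2 and U12 snRNPs, 3 rose with shRNA2 (*Sf3b3* 0.59, *Phf5a* 0.58, *Sf3b4* 0.57) and *Sf3b5* fell (-0.30), with a median of 0.10. Scaled by total counts alone, 4 rose and 1 fell with shRNA2 (median 0.19). With shRNA1, 2 of the 7 were called higher and *Sf3b5* lower (median 0.09). With 1 library left out these counts ran from 0 to 2 higher (0 without nt-shRNA replicate 2, 1 without nt-shRNA replicate 1, shRNA1 replicate 1 or shRNA1 replicate 2), and the call of *Sf3b5* was lost without any of the last 3. With libraries scaled by total counts alone 4 were higher with shRNA1, *Sf3b5* was not called and the median was 0.21. Of the 7 Sm proteins, which ring both sets of snRNAs, 4 rose with shRNA2 (*Snrpd1* 0.26, *Snrpb* 0.25, *Snrpd3* 0.23). The median of the 7 was 0.23, and *Snrpd2*, furthest from the others, was at -0.10 (adjusted p = 0.222). Scaled by total counts alone, 6 rose with shRNA2 and the median was 0.32. With shRNA1 the median was 0.03 and *Snrpd2* alone was called, lower (-0.24, adjusted p = 0.0137), a call lost without nt-shRNA replicate 1, shRNA1 replicate 1 or shRNA1 replicate 2. Of the Sm proteins 2 were lower without shRNA1 replicate 3, shRNA2 replicate 2 or shRNA2 replicate 3, and with libraries scaled by total counts alone 3 were higher, *Snrpd2* was not called and the median was 0.14. Of 12 proteins of U5 and the tri-snRNP, 11 rose with shRNA2, with *Prpf3* at 1.15, *Prpf8* at 0.64 and *Snrnp200* at 0.52, and 1, the targeted *Eftud2*, fell (median 0.29). With shRNA1, 3 of the 12 were called higher (median 0.09), but only 1 with either control library, any one shRNA1 library or shRNA2 replicate 1 left out, when *Prpf8* and *Snrnp200* lost their calls, and 8 (median 0.21) with libraries scaled by total counts alone. Of 10 proteins of the U1 and U2 side of the major spliceosome alone, 5 rose with shRNA2 (*Snrpb2* 0.61, *Sf3a2* 0.43, *Sf3a3* 0.40) and 2 fell, *Snrpa* (-0.28) and *Snrnp70* (-0.21), with a median of 0.14. Scaled by total counts alone, 7 rose and 1 fell with shRNA2 (median 0.23), and without shRNA2 replicate 1 these counts were 4 and 1. With shRNA1, 1 was called higher and 1 lower (median -0.03). These counts were 3 and 0 with libraries scaled by total counts alone (median 0.08), 2 and 4 without shRNA1 replicate 3, 1 and 0 without shRNA1 replicate 2, and 0 and 0 with shRNA1 replicate 1 or either control library left out. Without nt-shRNA replicate 1 the shRNA2 call of *Snrpd1* (adjusted p = 0.0564) was lost, as were both falls in the last list, that of *Snrpa* (adjusted p = 0.0628) and that of *Snrnp70*. The members' own count of 4 higher and 1 lower of 10, with a median of 0.11, stands beside these values, and no test between the lists was made.

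**Figure D4:**
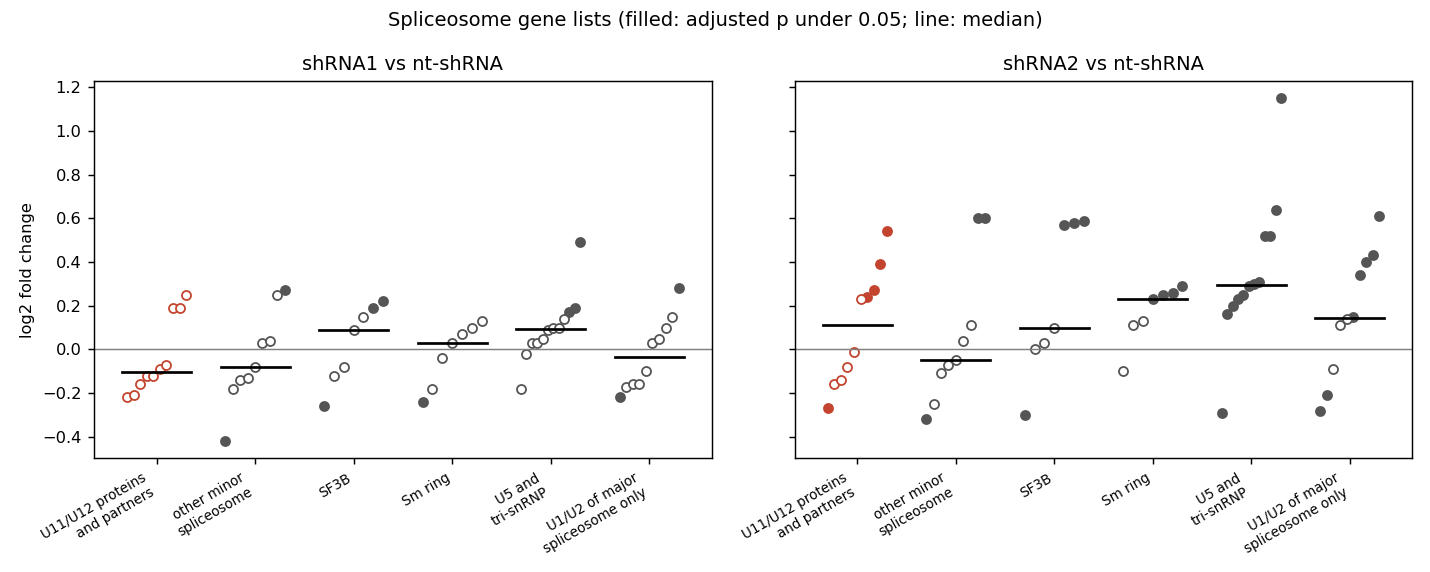
Log2 fold change of each gene (1 point per gene, filled where the adjusted p was under 0.05, line at the list median) for the 10 U11/U12 proteins and partners and for 5 other spliceosome lists, with shRNA1 (left) and shRNA2 (right) against nt-shRNA. With shRNA2 the members' median is 0.11 and that of U5 and tri-snRNP proteins 0.29, while with shRNA1 the members' median is -0.10, or 0.01 with libraries scaled by total counts alone.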

How the data were processed

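The authors aligned paired 100-base reads to GRCm38 with STAR without soft clipping and counted fragments per gene with featureCounts 1.6.2 on GENCODE M24 exons. The deposited values are raw counts per gene, with exon lengths, and were not normalized. No strand setting is visible in the part of the counting command that the file header holds, so overlapping antisense genes are treated as uncertain. Gene symbols came from GENCODE M21 through the Ensembl identifiers (55144 genes), and exon lengths of the 10 genes are equal in both.

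All 8 libraries were fitted together in R 4.3.3 with edgeR 4.0.16 (filterByExpr with a minimum count of 10, TMM factors from 0.935 to 1.036, glmQLFit and glmQLFTest, no block). P-values were adjusted by the Benjamini-Hochberg method over the 17445 genes tested, and a gene was called when its adjusted value was under 0.05. Standard errors and 95% intervals of a log2 fold change were taken from the F statistic. Depth was 19569525 to 29871048 counts, a biological coefficient of variation of 0.0638 was estimated, and 3 counts correspond to 0.104 to 0.148 CPM. Libraries of a group differed by more than sampling noise (chi-square per gene 3.00 to 11.6). The code was tested on simulated data first. The authors' own test was DESeq2, used here (1.42.0) as an alternative. The other alternatives were median-ratio size factors, library size alone, no filter, a minimum of 10 counts throughout, fits of the compared groups alone, a replicate block and each library left out. Figures and sequence searches used Python 3.11.15, pandas 2.3.3 and matplotlib 3.10.9.

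The members and lists were chosen with earlier results of these data known. Named are all 10 members, *Eftud2*, for every other list of spliceosome genes, U12-type intron genes or snRNAs the 3 that ranked first by p-value with shRNA2 and the gene that went furthest against its list's median, and the 3 genes most correlated with the member of smallest adjusted p-value. The marker lists are given by their sums, and the 3 markers named and *Snrnp70* were chosen after their values were seen. Splicing itself was not analysed here.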

Additional observations from a re-analysis of the deposited data

Results flagged for a closer look

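For 4 of the 10 members the effects of the hairpins differed by edgeR's test of shRNA2 against shRNA1. With shRNA2, 3 of them were higher and 1 lower, where 16.9% of all genes were higher and 18.7% lower. Read against these shares, the count is not a result about the members as a set. *Rbm48* was higher with shRNA2 by 0.39 on the log2 scale, *Zrsr2* by 0.33 and *Rnpc3* by 0.29, and *Pdcd7* differed by -0.20. The values held in the direction of the difference in every alternative, and the calls of *Rnpc3* and *Pdcd7* each rested on single libraries, as given with them. The groups held at most 3 libraries, so no library was tested as an outlier.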

How the results depend on the processing

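Across 15 alternatives no called value changed sign. Of the counts and medians over the members, 120 stayed close to the reported value (counts within 1.5 times, medians within 1 SD of the members' median over libraries, 0.061 to 0.199) and 15 moved. For shRNA2 against nt-shRNA that SD, 0.199, exceeds the median itself, 0.11. A median showing no change would there also have been counted as close, so the tally says little about that median. With libraries scaled by total counts alone, 2 members were higher with shRNA1 instead of 0 and their median was 0.01 instead of -0.10. That scaling moved the median of all genes to 0.11 with shRNA1 and 0.09 with shRNA2, and the share of calls that were higher from 44.7% to 70.5% and from 48.7% to 58.9%. With the replicate block, 2 members were higher (*Rnpc3*, *Zcrb1*) and 2 lower (*Snrnp25*, *Snrnp48*) with shRNA1 instead of 0 and 0. That block gave 2 lower with shRNA2 instead of 1, and 4 higher between the hairpins instead of 3, with *Zcrb1* added. Same-numbered libraries did not deviate together (r from -0.03 to 0.07), so the numbers are not read as pairs. Without a filter on low counts, 2 members were lower with shRNA2 and 3 higher instead of 4. Leaving out each library in turn gave 0 to 2 higher and 0 to 1 lower with shRNA1, 2 to 5 higher and 1 to 2 lower with shRNA2, and 2 to 4 higher and 0 to 1 lower between the hairpins. Of the single-gene values, 1376 kept their side of the threshold, 68 lost a call and 37 gained one. With 2 control libraries, leaving one out assumes that the other varies like the hairpin groups, and at 105 to 171 counts *Armc7* sets the lower limit of what could be seen.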

Other observations

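Genes with a U12-type intron, the substrates of the members, had calls in both directions. Of 17 such genes from general knowledge, 7 were higher and 4 lower with shRNA2 (median log2 fold change 0.10) and 4 were higher and 4 lower with shRNA1 (median 0.03), by edgeR's quasi-likelihood test. The shRNA1 counts were 7 and 1 with libraries scaled by total counts alone (median 0.14), 4 and 1 without shRNA1 replicate 2, 4 and 2 without shRNA1 replicate 1 (median -0.01), and 3 and 2 with either control library left out. With shRNA2 the median was 0.02 without nt-shRNA replicate 1. Over all genes tested, 27.2% were higher and 28.7% lower with shRNA2, and 13.8% and 17.1% with shRNA1. With shRNA2, *Mapk13*, a stress kinase, fell by 1.25 on the log2 scale (adjusted p = 6.3e-08), from 52.5 ± 1.13 CPM (SD, n = 2) to 22.1 ± 4.68 CPM (n = 3). *Polr2e*, a subunit of RNA polymerase II, fell by 0.76 (adjusted p = 6.8e-08), from 353 ± 21.4 CPM to 208 ± 6.68 CPM. *E2f3*, a regulator of cell cycle entry, rose by 1.03 (adjusted p = 1.2e-07), from 20.1 ± 2.25 CPM to 41.1 ± 5.02 CPM. Gene counts do not show whether the U12-type intron was removed.

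The U12 snRNA, *Rnu12* (chr15:83149644-83149794 of GRCm38, plus strand), was counted at 114 and 31 with nt-shRNA, 4, 2 and 3 with shRNA1 and 5, 9 and 5 with shRNA2. It was lower with shRNA1 (-4.32, SE 0.567, edgeR adjusted p = 1.5e-05) and with shRNA2 (-3.17, SE 0.494, adjusted p = 2.4e-05), and the groups did not overlap, although the controls differed by more than any hairpin libraries. The fitted *Rnu12* values rest on hairpin counts near the floor of 3 and were -3.03 and -1.88 without nt-shRNA replicate 1, and -5.01 and -3.86 without nt-shRNA replicate 2, called in each case. This RNA has no poly(A) tail, and the libraries were poly(A)-selected, so its count is no measure of its level in the cell. Calls of short RNAs were counted by class in the same libraries, a check chosen after the data were seen. They are read against the shares of all genes given above. The 15 snRNA genes tested include *Rnu12* itself. Of them, 6 were lower with shRNA1, and 7 were lower and 1 higher with shRNA2, with *Rnu12* among the lower ones each time. Of 7 scaRNA genes 3 and 4 were lower, and of 8 genes of the class misc_RNA 4 and 4, with 2 higher under shRNA2. Of 86 snoRNA genes, 12 were lower and 2 higher with shRNA1, and 8 lower and 22 higher with shRNA2, shares that do not exceed those of all genes. Their part in the *Rnu12* value was not tested. *Rnu11* was at 0 counts in every library, and the other minor snRNAs of the list were not matched by name.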
